A study of Mus musculus with 8 samples.

Results

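The comparison described here sets round spermatids with an RNA interference transgene (shSLX) aimed at Slx genes of the X chromosome beside wildtype round spermatids. It rests on 4 of the 8 arrays of the series, chosen by sample title and slide: shSLX 1 and 2, and wildtype 3 and 4, which the array labels place on the same slide. A second deposited table, described below, puts that shared slide in doubt. The samples labelled shSLX carried the shSLX RNAi construct and the wildtype samples carried no transgene. All mice were 8 weeks old, and the controls were matched for strain and age. The other 4 arrays were wildtype 1, wildtype 2 and 2 arrays labelled shSLY, whose transgene is aimed at Sly genes of the Y chromosome. All of them entered the fit and are quoted as further levels. Of these only the shSLY pair adds to the estimate of the spread. Wildtype 1 and 2 change neither the shSLX effect nor its spread. The sources used here give no strain, no promoter driving the hairpin, no number of founder lines and no statement that samples came from separate animals. The spread behind every p-value is therefore that of these samples and could be a technical one.

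Round spermatids are the haploid germ cells formed by meiosis, before the nucleus is compacted and the tail is built. In these cells the mouse sex chromosomes are held at a low level of transcription, and large multicopy gene families on the X and Y escape or modify that state. Slx and Slxl1, on the X, and Sly, on the Y, encode related proteins of the SYCP3 family. Sly is known as a repressor of sex-linked genes in spermatids, and Slx and Slxl1 are known to act against it.

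No probe was named Slx or Slxl1, so the measured genes closest to them were sought through their promoters. The promoter of a gene is taken here as the 250 bases before and 50 after its start in the RefSeq table (GRCm38.p6, 32851 promoters of 300 bases). Aligned end to end, 28 other X-linked promoters were 73.7% to 95.7% identical to that of Slx. The promoters of 3 Y-linked genes were 62.0% identical to it and 66.7% to 69.0% identical to that of Slxl1. No other promoter of the table had a positive alignment score to either. Of the X-linked relatives, 4 had a probe: Gm4836 (95.3% identical to Slx), Gm5168 (86.7%), Gm5935 (86.3%) and Gm14525 (84.7%). The promoters of Slx (chrX:26545516-26545815, minus strand), Slxl1 (chrX:55226626-55226925, plus strand), Gm14525 (chrX:26702589-26702888, minus strand) and Gm5935 (chrX:24775115-24775414, minus strand) are shown because the last pair fell in the arrays labelled shSLX and are the measured genes used here in place of the targeted ones. Capitals mark the longest run of bases that all of them share. It is 18 bases long, and 24 promoters of the table (0.0731%) hold it on either strand.
Slx: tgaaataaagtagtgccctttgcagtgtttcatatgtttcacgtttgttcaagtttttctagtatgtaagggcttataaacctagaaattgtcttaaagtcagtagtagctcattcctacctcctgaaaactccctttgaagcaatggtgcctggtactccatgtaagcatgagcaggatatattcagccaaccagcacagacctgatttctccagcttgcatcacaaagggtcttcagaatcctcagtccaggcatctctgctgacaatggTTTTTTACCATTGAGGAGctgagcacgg
Slxl1: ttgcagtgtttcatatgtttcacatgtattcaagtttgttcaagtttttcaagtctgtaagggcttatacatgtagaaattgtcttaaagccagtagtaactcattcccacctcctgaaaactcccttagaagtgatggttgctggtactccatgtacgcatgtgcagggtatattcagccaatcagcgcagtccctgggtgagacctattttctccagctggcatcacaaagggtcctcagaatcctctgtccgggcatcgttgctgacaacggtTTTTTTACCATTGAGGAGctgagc
Gm14525: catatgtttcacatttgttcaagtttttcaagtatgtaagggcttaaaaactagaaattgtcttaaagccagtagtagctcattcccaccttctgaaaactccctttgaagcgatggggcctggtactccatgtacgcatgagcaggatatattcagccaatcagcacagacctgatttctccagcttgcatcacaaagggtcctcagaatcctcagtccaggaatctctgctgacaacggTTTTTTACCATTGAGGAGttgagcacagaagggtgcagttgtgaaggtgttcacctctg
Gm5935: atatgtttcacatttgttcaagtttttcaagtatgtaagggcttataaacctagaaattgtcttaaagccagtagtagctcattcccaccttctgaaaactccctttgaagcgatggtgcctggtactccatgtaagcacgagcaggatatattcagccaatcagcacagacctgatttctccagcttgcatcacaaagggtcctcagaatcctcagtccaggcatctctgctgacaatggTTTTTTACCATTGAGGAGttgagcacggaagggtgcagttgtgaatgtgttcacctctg
Gm14525 and Gm5935 were 97.0% identical to each other in this window and 80.3% to 86.3% identical to Slx and Slxl1. Likeness of promoters was used after the falls of Gm14525 and Gm5935 had been seen, and it does not show that a probe or a hairpin binds the transcript. Sly and Gm14594 had no entry in the promoter table.

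Of 6 genes tested here, the Slx-like Gm14525 and Gm5935, the X-linked Gm14594 and the Y-linked Sly fell in the arrays labelled shSLX, and Gm5168 and Gm20736 did not pass. All signals below are normalized log2 intensities, and all differences are log2 differences between the mean of shSLX 1 and 2 and the mean of wildtype 3 and 4, with the standard error of the fit. Gm14525 stood at 8.77 and 8.30 in shSLX 1 and 2 against 9.61 and 9.62 in wildtype 3 and 4, a fall by 1.08 ± 0.15 (2.11-fold, adjusted p = 0.00715). Gm5935 stood at 12.30 and 11.51 against 13.02 and 13.02, a fall by 1.11 ± 0.21 (2.16-fold, adjusted p = 0.0322). Both shSLX arrays lay below all 6 other arrays for each of these genes. Gm5168 stood at 9.54 and 8.68 against 10.35 and 10.02, a difference of -1.07 ± 0.24 that missed the threshold (adjusted p = 0.0611). Gm4836 was detected in no column and was not tested. Gm14594, an X-linked gene that lies near Slxl1, stood at 10.22 and 9.43 against 10.92 and 11.11 and fell by 1.19 ± 0.23 (adjusted p = 0.032). Sly stood at 9.45 and 8.93 against 10.05 and 10.04 and fell by 0.86 ± 0.17 (adjusted p = 0.0377). The Y-linked relative Gm20736 lay below the level at which all columns detected probes, at 6.29 and 6.04 against 6.41 and 6.29, and did not pass (adjusted p = 0.44). In each of these 6 tested genes shSLX 2 lay below shSLX 1.

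The size of these falls differed between the 2 arrays, and the calls rested on both wildtype arrays. With shSLX 1 alone Gm5935 was at -0.72, and with shSLX 2 alone at -1.51. Over the leave-out fits the difference ran from -1.32 to -0.84 for Gm14525, from -1.59 to -0.79 for Gm14594, from -1.12 to -0.60 for Sly and from -1.51 to -0.64 for Gm5168. Here and below, leaving out wildtype 1 or wildtype 2 could not change the result. Leaving out shSLY 1 or shSLY 2 gave the same result. Without wildtype 3 the adjusted p was 0.13 for Gm14525, 0.297 for Gm5935, 0.245 for Gm14594 and 0.319 for Sly. Without wildtype 4 it was 0.132, 0.297, 0.333 and 0.317 in the same order. Without either shSLY array Gm5935 (0.0666), Gm14594 (0.0554) and Sly (0.0597) missed the threshold while Gm14525 passed it (0.0211). Gm5168 passed with shSLX 2 alone (0.000823) and with shSLX 1 alone (0.0195). These genes have near-identical relatives, so a probe can report several transcripts.

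The 2 deposited tables disagree over which array is which, and the Slx-like genes differed between them. The series matrix is keyed by sample, and a second table of non-normalized values is keyed by array label. By ranks over all probes, 2 of the 8 non-normalized columns (wildtype 1 and 2) held the same array as the series matrix sample of that name. The columns headed shSLY 1 and 2 held the series matrix values of shSLX 1 and 2, and those headed wildtype 3 and 4 held the values of shSLY 1 and 2. By these headers the shSLX values come from the slide of wildtype 1. The slide used in the fit, and wildtype 3 and 4 as controls of the same slide, are thus in doubt along with the names. The columns headed shSLX 1 and 2 had no partner in the series matrix, nor had its wildtype 3 and 4 in the non-normalized table. In that table Gm5935 stood at 8.73 and 8.35 in the columns headed shSLX, against 12.70 and 12.64 in those headed wildtype 1 and 2. Gm14525 stood at 6.20 and 6.05 against 9.64 and 9.63, and Gm5168 at 5.93 and 4.97 against 10.06 and 10.09. Against wildtype 1 and 2, whose names both tables share, the fold was thus 17.6 for Gm5935, 11.4 for Gm14525 and 24.7 for Gm5168 in the columns headed shSLX. The arrays labelled shSLX in the series matrix lay 1.73-fold, 2.30-fold and 2.06-fold below the same 2 wildtype arrays. These values across slides are given without a test.

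**Figure D1:**
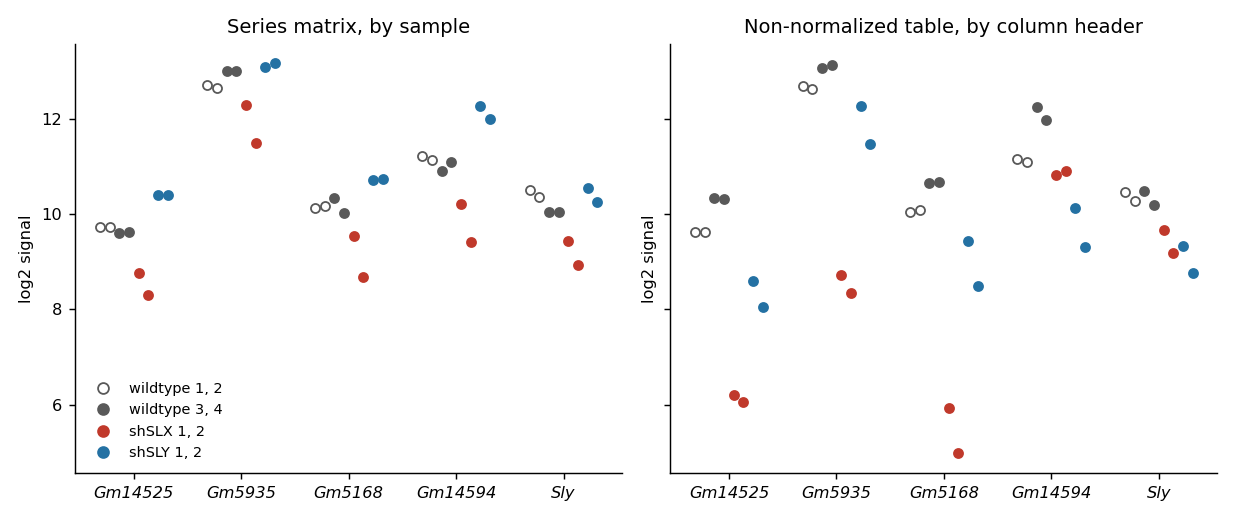
Log2 signal of the Slx-like genes Gm14525, Gm5935 and Gm5168, of Gm14594 and of Sly, 1 point per array, coloured by group. The left panel follows the series matrix by sample, with the shSLX arrays below the wildtype arrays by about 1 log2 unit. The right panel follows the headers of the non-normalized table (background-corrected and normalized with neqc), where the Slx-like genes reach 8.73 or less in the columns headed shSLX.

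Genes of the sex chromosomes as a whole also differed between the tables. In the series matrix the median difference of 263 X genes was -0.03 and that of 16 Y genes -0.09, beside -0.01 for 9144 autosomal genes. In the non-normalized table the columns headed shSLX lay -0.74 from those headed wildtype 3 and 4 over X genes and -0.91 over Y genes. Against wildtype 1 and 2 of that table they lay at -0.15 and 0.02. The labels and files do not decide between the names of the 2 tables, nor between the slides that go with them. The results that follow hold for the arrays labelled shSLX and wildtype by sample in the series matrix, and no column was renamed by its values.

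Across the genome the arrays labelled shSLX showed more rises than falls. Probes were tested with limma, and those with an adjusted p under 0.05 are called rises or falls. Of 16572 probes tested, 363 rose (2.19%) and 37 fell (0.223%). With 1 probe per gene, 242 of 9451 genes rose (2.56%) and 23 fell (0.243%). The median difference over genes was -0.01, and 48.1% of genes lay above 0. The count of 400 called probes depended on single arrays: leaving out wildtype 3 gave 51 and leaving out wildtype 4 gave 43. The count was 613 with shSLX 2 alone, 2495 with shSLX 1 alone and 250 when either shSLY array was dropped. All 51 calls made without wildtype 3 and 42 of the 43 made without wildtype 4 were among the 400. When 1 shSLX array was left out, the remaining one was assumed to vary like the other groups.

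Rises were also larger than falls. Of the rises, 52 exceeded 2-fold and 192 exceeded 1.5-fold, with a median of 0.75. Of the falls, 3 exceeded 2-fold and 12 exceeded 1.5-fold, with a median of -0.59. The smallest called differences were 0.46 and -0.48. Rises were denser among dim genes: with the genes in 4 equal groups by wildtype signal, 4.27% of the dimmest group rose, then 2.75%, 2.20% and 1.02% of the brighter ones. Falls ran the other way, at 0.0423%, 0.254%, 0.296% and 0.381%. The filter on dim probes could admit genes detected in the shSLX arrays alone, but not those detected in wildtype 3 and 4 alone. For 71 rises both wildtype arrays lay below a log2 signal of 6.60, the level reached by the number of probes detected in the column with the fewest. Folds of such genes are given as lower bounds, with the wildtype values raised to that level.

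**Figure D2:**
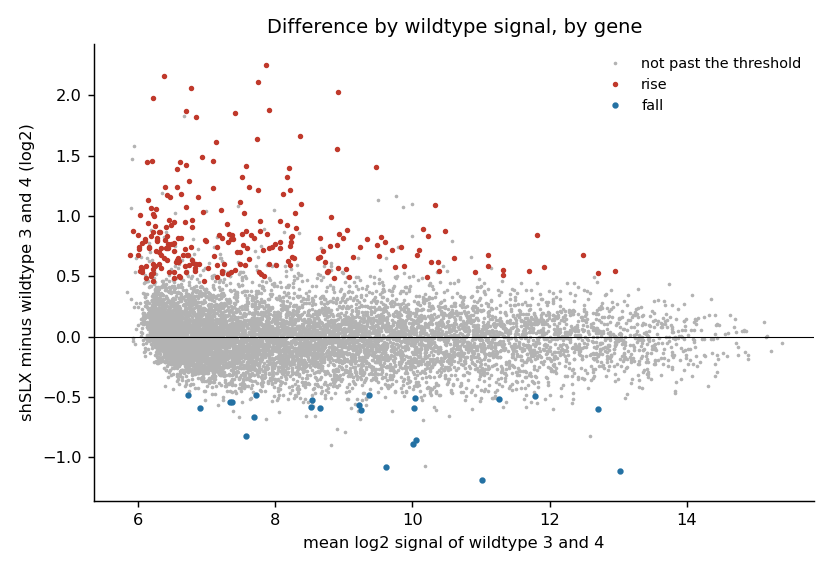
Log2 difference between shSLX and wildtype 3 and 4 by gene (vertical axis) against the mean log2 signal of the 2 wildtype arrays (horizontal axis), for 9451 genes. Rises are red and falls blue, and 101 of the rises lie in the dimmest of 4 equal groups by signal.

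The 2 shSLX arrays agreed less well with each other than the wildtype arrays did. The SD of a gene within a pair was 0.20 for shSLX, 0.11 for wildtype 3 and 4 and 0.13 for shSLY. The shSLX arrays correlated at 0.989 across all tested probes, and wildtype 3 and 4 at 0.996. Against wildtype 3, shSLX 1 correlated at 0.986 and shSLX 2 at 0.991. The differences shSLX 1 minus wildtype 3 and shSLX 2 minus wildtype 4, which share no array, correlated at 0.42 across genes, and the crossed pairing at 0.43. These correlations are across probes or genes of arrays that the sample labels place on 1 slide, and neither probes nor genes are independent replicates.

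Differences of more than 1 log2 unit were shared by both arrays in some of the genes. Of the genes more than 1 log2 unit from the wildtype mean, 99 were so in shSLX 1 and 76 in shSLX 2. In 37 genes both arrays passed that distance in the same direction, and in 0 genes both passed it in opposite directions, while some genes high in 1 array stood at or below wildtype in the other. Both shSLX arrays lay above both wildtype 3 and 4 in 2184 genes (23.1%) and below both in 2245 (23.8%). They lay above all 6 other arrays in 983 genes (10.4%) and below all 6 in 1027 (10.9%). Of the 242 rises, 223 lay above all 4 wildtype arrays and 204 above all 6 other arrays. Of the 23 falls, 18 lay below all 6. Among 97 called genes with more than 1 probe tested, every probe was called in 30.

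**Figure D3:**
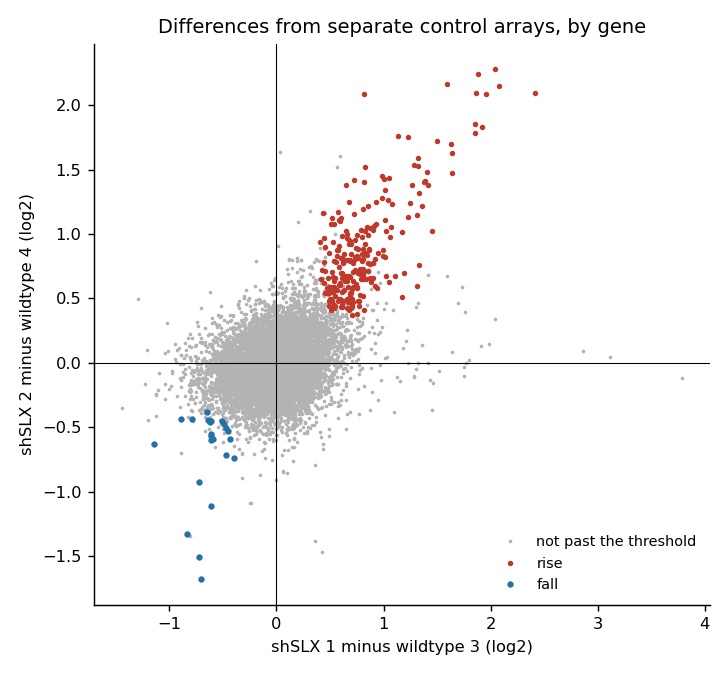
Difference shSLX 2 minus wildtype 4 (vertical axis) against shSLX 1 minus wildtype 3 (horizontal axis), both in log2 units, 1 point per gene. Rises (red) and falls (blue) lie in the quadrants where both differences have the same sign, and a scatter of grey points on the right shows genes high in shSLX 1 alone.

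A set of genes was high in shSLX 1 only. The shSLX arrays differed from each other by more than 1 in 41 genes, with shSLX 1 higher in 35 of them. Wildtype 3 and 4 differed that much in 5 genes and the shSLY arrays in 33. Ntpcr, a nucleoside triphosphatase, stood at 10.47 in shSLX 1 and 6.55 in shSLX 2, against 6.68 and 6.67 in wildtype 3 and 4. It was high in every array of the other slides, at 10.58 and 11.30 in wildtype 1 and 2 and at 10.23 and 11.39 in shSLY 1 and 2. Prss40, a serine protease of the testis, stood at 8.85 and 5.94 against 5.99 and 5.85, and was also high in wildtype 2 (8.67) and shSLY 2 (9.29). Myo7a, an unconventional myosin, stood at 7.95 and 5.99 against 5.96 and 5.85. Il31, a cytokine gene, stood at 7.86 and 6.28 against 6.09 and 6.28, and at 7.28 in wildtype 1. None of the 10 genes with the widest gap passed the test, with adjusted p from 0.263 for Gtf2ird2 to 0.508 for Prss40.

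The tissue kallikreins, a cluster of serine protease genes on chromosome 7 known for cleaving kininogens and growth factor precursors, rose together. All 7 measured members of 14 listed rose, beside 2.56% of all genes, with a median of 1.55 beside -0.01 over all genes. In the non-normalized table, the columns that hold the shSLX arrays stood at 6.6 and 6.8 for Klk1b27, against 4.4 to 5.3 in the others. For Klk1b21 they stood at 6.3 and 6.7 against 4.8 to 5.5. These 2 members may thus have been tested only because they were high in shSLX. They are neighbours and form the longest run of adjacent rises in the genome, between Klk1b8 and Klk1. The list was drawn up with earlier results of these data known, and near-identical sequences among the Klk1b genes can share probes. The promoters of Klk1b5 (chr7:44216224-44216523, plus strand) and Klk1b26 (chr7:44012428-44012727, plus strand), the members with the largest rises, show how alike these genes are. Capitals mark the longest run shared by the 6 Klk1b genes, 11 bases that 22 promoters of the table (0.067%) hold on either strand.
Klk1b5: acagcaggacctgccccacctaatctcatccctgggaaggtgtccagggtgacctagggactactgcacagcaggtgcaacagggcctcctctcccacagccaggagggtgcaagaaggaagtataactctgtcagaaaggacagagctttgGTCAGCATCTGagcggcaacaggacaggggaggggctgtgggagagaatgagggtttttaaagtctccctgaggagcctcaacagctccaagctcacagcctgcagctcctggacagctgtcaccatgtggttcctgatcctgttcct
Klk1b26: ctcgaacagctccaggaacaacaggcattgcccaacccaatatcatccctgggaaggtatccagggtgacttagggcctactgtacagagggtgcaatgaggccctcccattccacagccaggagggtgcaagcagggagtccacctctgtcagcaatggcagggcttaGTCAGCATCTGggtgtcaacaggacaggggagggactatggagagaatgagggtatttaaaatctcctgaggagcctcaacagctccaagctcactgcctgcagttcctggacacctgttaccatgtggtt
Between the Klk1b genes identity ran from 68.3% to 86.3%, and Klk1 was 48.0% to 69.0% identical to them. Promoters of Slx and the kallikreins were 47.3% to 56.0% identical. The motif TATAAA, searched on both strands, was in 0 of the 7 kallikrein promoters and in 5 of the 30 X-linked Slx-like ones, beside 13.6% of all promoters.

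The levels of the kallikreins in the arrays of the other slides varied by gene. Klk1b26 stood at 10.36 and 9.89 in shSLX against 7.95 and 7.79 in wildtype 3 and 4, a rise of 2.25 ± 0.24 (4.77-fold, adjusted p = 0.00201), while its second probe was at 2.01 and did not pass (adjusted p = 0.089). The shSLY arrays reached 9.57 and 10.31 for Klk1b26, overlapping the shSLX arrays. Klk1b5 stood at 10.99 and 10.88 against 9.03 and 8.79, with 9.85 and 9.28 in wildtype 1 and 2 and 10.70 and 10.65 in shSLY. Klk1 stood at 9.31 and 9.21 against 7.46 and 7.36, with 8.23 and 7.71 in wildtype 1 and 2 and 8.78 and 8.65 in shSLY. For Klk1b5 and Klk1 both shSLX arrays lay above every other array. Klk1b9 stood at 10.52 and 10.40 against 8.89 and 8.93, but shSLY was at 10.56 and 10.62. Klk1b8, the brightest member, stood at 12.46 and 12.52 against 11.97 and 11.86, while wildtype 1 was at 12.61 and wildtype 2 at 12.44. Both shSLX arrays thus lay above wildtype 2 and below wildtype 1 for Klk1b8. Klk1b27 stood at 7.19 and 7.32 in shSLX against 6.12 and 6.27 in wildtype 3 and 4, with 6.34 and 6.38 in wildtype 1 and 2 and 6.45 and 6.27 in shSLY. Klk1b21 stood at 6.97 and 7.23 against 6.28 and 6.28, with 6.42 and 6.29 in wildtype 1 and 2 and 6.56 and 6.45 in shSLY. For these 2 dimmer genes both shSLX arrays lay above the other 6. The other 6 lay close together below the log2 signal of 6.60 described above, so their closeness may be that of background.

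Of the dim members, Klk1b27 stood at 7.19 and 7.32 against 6.12 and 6.27, at least 1.57-fold higher (adjusted p = 0.00216). Klk1b21 stood at 6.97 and 7.23 against 6.28 and 6.28, at least 1.41-fold higher (adjusted p = 0.00803). Klk1, Klk1b5 and Klk1b9 passed the test in every leave-out fit that could change the result. Klk1b26 missed it without wildtype 3 (0.0585) or wildtype 4 (0.0728), as did Klk1b27 (0.0667 and 0.0519), Klk1b21 (0.135 and 0.134) and Klk1b8 (0.162 and 0.27). Klk1b8 also missed it without either shSLY array (0.067). Named by the non-normalized table's headers, the direction was the opposite for every member, with Klk1b26 at -1.90, Klk1b5 at -1.68, Klk1b9 at -1.61 and Klk1 at -1.41.

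**Figure D4:**
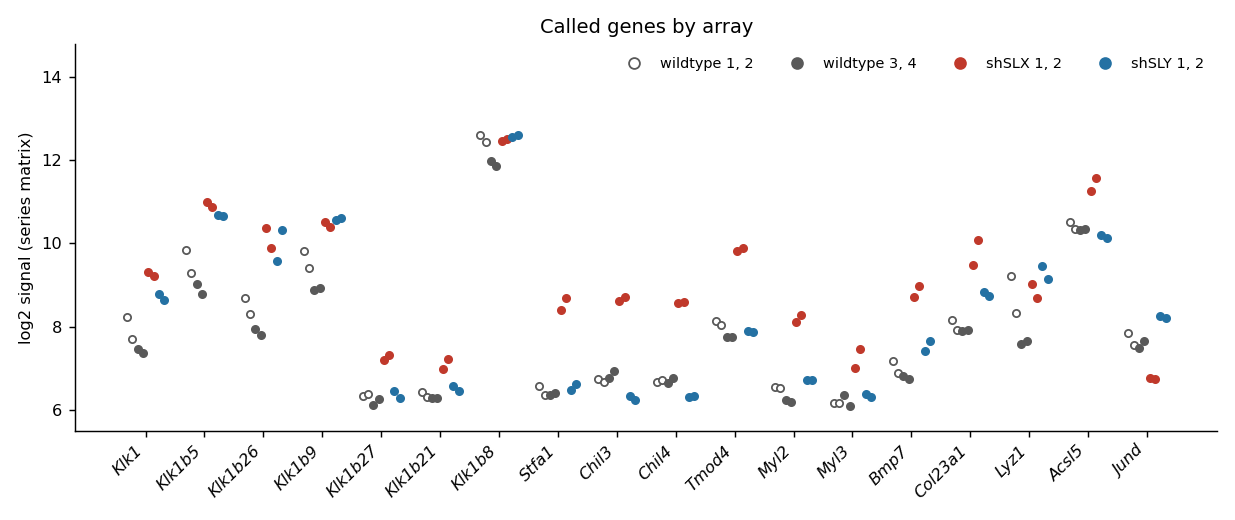
Log2 signal in the series matrix of 18 called genes, 1 point per array: the 7 kallikreins, then Stfa1, Chil3, Chil4, Tmod4, Myl2, Myl3, Bmp7, Col23a1, Lyz1, Acsl5 and Jund. For Stfa1, Chil3, Chil4, Tmod4, Myl2 and Bmp7 the shSLX arrays stand clear of all others, whereas for Klk1b8 and Lyz1 they lie among them.

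Rises lay beside other rises in the gene order more often than other genes did. Of 240 rises with a place on the map, 33 (13.75%) were next to a rise, against 4.73% of the other placed genes. There were 14 runs of adjacent rises. Besides the kallikreins, 8 were pairs of related genes: Chil3 and Chil4, Csta3 and Stfa1, Lyz1 and Lyz2, Serpina1b and Serpina1d, Nat8 and Nat8f4, Pira2 and Lilra6, Bpifa3 and Bpifb1, and Fbxw18 and Fbxw20. The other 5 pairs were Ccl4 and Wfdc17, Tbcd and B3gntl1, 1110008P14Rik and Lcn2, Plpp3 and Lexm, and Dmbt1 and 4933402N03Rik. Related neighbours can share probe sequence, and their part in this was not tested. By chromosome, the share of rises was highest on 14 (3.86%) and 16 (3.75%), and 1 of 263 X genes rose (0.380%).

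Genes of chitinase-like proteins and stefins held some of the clearest differences. Of 7 measured members of 23 listed, 3 rose and 0 fell, beside 2.56% and 0.243% of all genes, with a median of 0.49. Chil4 stood at 8.57 and 8.60 against 6.65 and 6.77, with 6.30 to 6.72 in the arrays of the other slides, and rose by 1.87 ± 0.10 (3.66-fold, adjusted p = 7.7e-05). Chil3, whose product is secreted by macrophages, stood at 8.62 and 8.71 against 6.76 and 6.92 and rose by 1.82 ± 0.11. Stfa1, which encodes an inhibitor of cysteine proteases, stood at 8.39 and 8.68 against 6.35 and 6.41, at least 3.82-fold higher (adjusted p = 8.56e-05). These rises exceeded every other array and passed in every leave-out fit. In the non-normalized table Stfa1 stood at 8.2 and 8.5 in the columns that hold the shSLX arrays, against 5.0 to 5.8 in the others. Stfa1 may thus have been tested only because it was high in shSLX. Chit1, the chitotriosidase gene, did not pass (-0.22 ± 0.11, adjusted p = 0.361), nor did Chia1 (-0.25 ± 0.13, 0.377).

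Among muscle contractile genes, 3 of 11 measured (of 36 listed) rose and 0 fell, beside 2.56% and 0.243% of all genes, with a median of 0.27. In the non-normalized table, the columns that hold the shSLX arrays stood at 7.8 and 8.0 for Myl2, against 5.0 to 5.8 in the others. For Myl3 they stood at 6.3 and 7.0 against 4.6 to 5.1. Myl2 and Myl3 may thus have been tested only because they were high in shSLX. Tmod4, which caps the pointed ends of actin filaments in muscle, stood at 9.83 and 9.89 against 7.75 and 7.74 and rose by 2.11 ± 0.10 (4.32-fold, adjusted p = 6.33e-05). Myl2, a regulatory myosin light chain, stood at 8.11 and 8.28 against 6.24 and 6.19, at least 3.02-fold higher (adjusted p = 7.7e-05). Myl3, an essential myosin light chain, stood at 7.01 and 7.47 against 6.36 and 6.09, at least 1.56-fold higher (adjusted p = 0.0131). Tmod4 and Myl2 passed in every leave-out fit, and Myl3 missed the threshold without wildtype 3 (0.101) or wildtype 4 (0.213). The other members did not pass: the brighter Myl4 was at 0.19 ± 0.11 (adjusted p = 0.407) and Tmod1 at 0.25 ± 0.12 (0.327). Of the 7 skeletal muscle markers 2 were measured, Myl1 (0.42, adjusted p = 0.168) and Tnnc2 (0.27, 0.258), and neither passed. Acta1, Ckm, Myh4 and Mylpf, defining markers of that tissue, were detected in 0 of the 8 columns.

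Further large rises came from several families. Bmp7, a secreted ligand of the bone morphogenetic protein family, stood at 8.70 and 8.99 against 6.82 and 6.74 and rose by 2.06 ± 0.13 (4.18-fold, adjusted p = 0.000124). It was the 1 called gene among 10 measured members of that pathway, beside 2.56% of all genes that rose and 0.243% that fell. Col23a1, a transmembrane collagen, stood at 9.49 and 10.09 against 7.90 and 7.92 and rose by 1.88 ± 0.17. Plpp3, a phosphatase of lipid phosphates, rose by 1.61 ± 0.12 (3.05-fold), from 7.09 and 7.19 to 8.59 and 8.90. Nudt5, which hydrolyses ADP-sugars, stood at 9.99 and 10.08 against 8.36 and 8.38, but its second probe was at 0.32 and did not pass (adjusted p = 0.28). Strn, a scaffold of protein phosphatase 2A, stood at 8.02 and 8.09 against 6.61 and 6.61 and rose by 1.44 ± 0.10. Each of these lay above all 6 other arrays in both shSLX arrays and passed in every leave-out fit.

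The remaining large rises varied in how far the arrays agreed. Tgfbi, an extracellular matrix protein gene, stood at 8.95 and 9.03 against 7.67 and 7.49 and rose by 1.41 ± 0.11 (adjusted p = 0.000373). Ffar4, a receptor for long-chain fatty acids, stood at 8.03 and 7.88 against 6.65 and 6.48 and rose by 1.39 ± 0.12. Slamf9, a receptor of the SLAM family, stood at 8.79 and 8.90 against 7.46 and 7.59. In Serpina1b, an alpha-1-antitrypsin gene, the arrays stood apart at 8.07 and 9.02, against 7.25 and 6.94. With 2 of its 3 probes called, its rise of 1.45 ± 0.26 had an adjusted p of 0.0238, and of 0.196 and 0.304 without wildtype 3 and 4. Cyp2a12, a cytochrome P450 gene, stood at 10.86 and 10.88 against 9.47 and 9.46, yet wildtype 1 and 2 were at 10.35 and 10.18. Pira2, a paired immunoglobulin-like receptor, was at least 2.08-fold higher (7.50 and 7.82 against 6.18 and 6.23, adjusted p = 0.000758). Aox4, an aldehyde oxidase, was at least 1.97-fold higher (7.43 and 7.73 against 6.30 and 5.97, adjusted p = 0.00143).

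Among abundant transcripts, those in the brightest of these 4 groups, the rises were smaller. Acsl5, which activates long-chain fatty acids with coenzyme A, stood at 11.26 and 11.58 against 10.33 and 10.34 and rose by 1.09 ± 0.12 (2.13-fold, adjusted p = 0.00278), with its second probe also called. Nqo2, a quinone reductase, stood at 11.23 and 10.86 against 10.12 and 10.19 and rose by 0.89 ± 0.13. Atp6v1h, a subunit of the vacuolar proton pump, stood at 11.13 and 10.98 against 10.23 and 10.21. Prkcd, protein kinase C delta, stood at 11.62 and 11.94 against 11.13 and 11.09. In all 4 genes both shSLX arrays lay above the other 6. The beta-defensin gene Defb33 stood at 12.81 and 12.51 against 11.63 and 12.001, but wildtype 1 reached 12.68. Acsl5 missed the threshold without wildtype 3 (0.0755) or 4 (0.0759), as did Nqo2 (0.169 and 0.129), Atp6v1h (0.0964 and 0.106), Prkcd (0.242 and 0.276) and Defb33 (0.247 and 0.0797). Prkcd (0.0673) and Defb33 (0.0521) also missed it without either shSLY array.

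Falls outside the Slx and Sly family were few and small. Jund, a subunit of the AP-1 transcription factor, stood at 6.77 and 6.74 against 7.49 and 7.66 and fell by 0.82 ± 0.10 (1.77-fold, adjusted p = 0.00484). Both shSLX arrays lay below every other array for Jund. In the list of AP-1 and immediate early genes Jund was the 1 fall and Gadd45g, a growth arrest gene, the 1 rise (0.70 ± 0.11), among 12 measured. Over all genes 0.243% fell and 2.56% rose. Fos was at 0.35 ± 0.16 (adjusted p = 0.305) and Egr1 at 0.42 ± 0.17 (0.256). Cracd, which restrains actin capping protein, stood at 8.83 and 9.41 against 9.97 and 10.04 and fell by 0.89 ± 0.17, but its second probe was at 0.21 and did not pass (adjusted p = 0.396). Dctn1, a dynactin subunit, fell by 0.66 ± 0.13 and Kat7, a histone acetyltransferase, by 0.61 ± 0.12, with the second probe of Kat7 at -0.35 (adjusted p = 0.147).

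Trip12, a ubiquitin ligase with a high signal, stood at 12.01 and 12.19 against 12.62 and 12.79 and fell by 0.60 ± 0.11, with 2 of its 4 probes called and the other 2 at -0.55 (adjusted p = 0.0634) and -0.48 (0.156). Per1, a circadian clock gene, stood at 8.76 and 8.54 against 9.16 and 9.28, while all 4 arrays of the other slides lay between 10.62 and 10.99, and 2 of its 3 probes were called. Kcnu1, the potassium channel of sperm, stood at 9.59 and 9.48 against 10.02 and 10.07, and wildtype 1 and 2 were at 9.56 and 9.56. For Kcnu1, shSLX 1 thus lay above and shSLX 2 below the wildtype arrays of the other slides. Without wildtype 3 the adjusted p of Jund was 0.059, of Cracd 0.267, of Kat7 0.338, of Trip12 0.169, of Per1 0.246 and of Kcnu1 0.264. Without wildtype 4 these were 0.101, 0.319, 0.273, 0.318, 0.367 and 0.324, and neither fit called a fall: the count was 0 of 16572 probes in each by limma, with 693 and 569 probes lower at an unadjusted p under 0.05.

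The markers of round spermatids were measured at high levels, with 0 calls. Of 19 markers 17 were measured, and 0 rose and 0 fell by limma, beside 2.56% and 0.243% of all genes. Their median was 0.05. At an unadjusted p under 0.05, 3 were higher, beside 2849 of all 16572 probes tested that passed it in either direction. Their summed signal was 231700 and 233400 in shSLX and 226900 and 229300 in wildtype 3 and 4. Prm1, the protamine that packs sperm DNA, stood at 15.28 and 15.22 against 15.17 and 15.08, and Acrv1, an acrosomal protein gene, at 13.63 and 13.61 against 13.65 and 13.91. Tnp2, a transition protein, had the largest difference among them (0.44 ± 0.14, adjusted p = 0.166). In bulk RNA of this kind, fewer cells of a type and less RNA per cell cannot be told apart.

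Other programmes of the germ cell showed few calls, as did all genes together, of which 2.56% rose and 0.243% fell. Of 16 measured sperm nuclear protein genes 1 rose, the histone variant H2al2a, at 11.03 and 10.95 against 10.35 and 10.40 (0.61 ± 0.10, adjusted p = 0.0144, and 0.206 and 0.155 without wildtype 3 and 4). There were 0 rises and 0 falls among 25 acrosomal genes (median -0.08), 25 sperm tail genes (-0.10), 17 meiosis genes (-0.01), 21 genes of piRNA and RNA control (-0.10), 27 proteasome genes (0.02) and 37 respiratory chain genes (0.02). The 38 cytosolic ribosome genes also had 0 calls, with a median of 0.14. Of them, 22 lay above wildtype 3 and 4 in both arrays and 0 below, beside 23.1% and 23.8% of all genes. At an unadjusted p under 0.05 by limma, 7 ribosome genes were higher. In each of the 6 lists from acrosomal to respiratory chain genes 2 to 5 differed in either direction. Over all probes, 2849 of the 16572 tested passed that unadjusted limit in either direction. Among 15 histone acetyltransferase genes and their partners 1 fell (Kat7) and the median was -0.19. In 17 multicopy X genes the 3 falls were Gm14525, Gm5935 and Gm14594, beside 0.243% of all genes. The median of these X genes was 0.13 in shSLX 1 and -0.28 in shSLX 2.

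**Figure D5:**
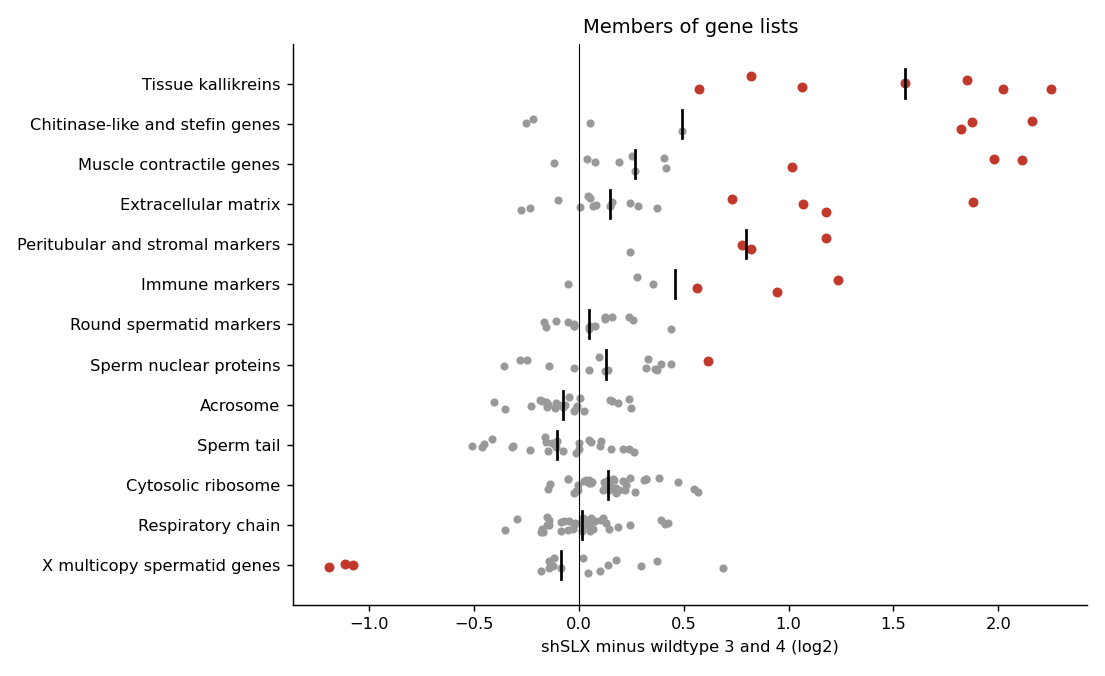
Log2 difference between shSLX and wildtype 3 and 4 for the measured members of 13 gene lists, 1 point per gene. Red points passed the test, and vertical bars mark the median of each list, from 1.55 for the kallikreins to -0.10 for the sperm tail.

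Some markers of stromal and immune cells rose, while those of Sertoli, Leydig and endothelial cells had 0 calls. Of 10 peritubular and stromal markers 4 were measured and 3 rose, beside 2.56% of all genes: Dcn, a matrix proteoglycan (1.18 ± 0.12), Acta2, smooth muscle actin (0.82 ± 0.12), and Myh11, smooth muscle myosin (at least 1.17-fold higher, adjusted p = 0.00933, 6.74 and 6.93 against 6.003 and 6.11). Myh11 was detected in 2 columns, the fewest that the filter allows. In the non-normalized table it stood at 5.86 and 6.19 in the columns that hold the shSLX arrays, against 4.38 to 5.03 in the others. It may thus have been tested only because it was high in shSLX. Of the 3 Acta2 probes tested, 1 was called, and the median of the list was 0.80 with 1 probe per gene and 0.57 with the mean over each gene's probes. The summed signal of the 4 markers was 1124 and 1098 in shSLX, 602.3 and 614.3 in wildtype 3 and 4, and 787.6 and 508.7 in wildtype 1 and 2. Of 10 immune markers 6 were measured and 3 rose: Lyz1 (1.24 ± 0.15) and Lyz2 (0.95 ± 0.16), lysozymes of macrophages, and the complement gene C1qc (at least 1.01-fold higher, adjusted p = 0.0421). The second probes of Lyz1 (0.08, adjusted p = 0.714) and Lyz2 (0.19, 0.467) did not pass. Lyz1 stood at 9.03 and 8.68 in shSLX against 7.57 and 7.66 in wildtype 3 and 4, yet wildtype 1 was at 9.21 and the summed immune signal was 1390 there, against 1228 and 1005 in shSLX. Adgre1, a defining macrophage marker, did not pass (-0.05 ± 0.12, adjusted p = 0.849). The 4 measured Sertoli cell markers, the Leydig cell marker Insl3 and the endothelial marker Tek had 0 calls. At an unadjusted p under 0.05 by limma 0 of them passed, beside 2849 of all 16572 probes tested. Of the defining markers, Col1a1, Col1a2, Col3a1, Pdgfra, Tagln and Cnn1 of stroma and Ptprc and C1qa of immune cells were detected in 0 of the 8 columns. Without wildtype 3 and without wildtype 4, Dcn (0.0639 and 0.0627), Acta2 (0.116 and 0.143), Myh11 (0.169 and 0.114), Lyz1 (0.0873 and 0.0787), Lyz2 (0.243 and 0.245) and C1qc (0.377 and 0.205) missed the threshold. The part of these cells in the other rises was not tested.

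Extracellular matrix genes rose in 4 of 17 measured cases, with 0 falls, beside 2.56% and 0.243% of all genes, and a median of 0.15: Col23a1 and Dcn, and at lower signal Col4a2, a basement membrane collagen (7.52 and 8.01 against 6.80 and 6.60, 1.07 ± 0.16), and Mgp, a matrix protein that inhibits calcification (at least 1.47-fold higher, adjusted p = 0.0114, 7.16 and 7.17 against 6.42 and 6.44). Bgn was at 0.37 ± 0.12 (adjusted p = 0.16) and Sparc at 0.28 ± 0.16 (0.413). Without wildtype 3 and 4 in turn, Col4a2 (0.116 and 0.193) and Mgp (0.176 and 0.154) missed the threshold, and Col23a1 passed it (0.0467 and 0.049).

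The same arrays can be set beside the 2 wildtype arrays whose names both tables share. The mean of the shSLX arrays lay above the mean of wildtype 1 and 2 by 2.07 for Stfa1, 1.96 for Chil3, 1.89 for Chil4, 1.82 for Bmp7, 1.76 for Tmod4 and 1.66 for Myl2. For these genes the difference was thus close to that from wildtype 3 and 4. It was smaller for Klk1 (1.29) and Klk1b9 (0.84), and near 0 for Klk1b8 (-0.03), Lyz1 (0.09) and C1qc (-0.04). Slide and group cannot be told apart in these values, which are given without a test.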

How the data were processed

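Total RNA of round spermatids, purified by centrifugal elutriation, was hybridised to Illumina mouse bead arrays, per the labels' protocols. The submitters' processing notes name BeadStudio and GenomeStudio without versions. The deposited series matrix holds intensity values on a linear scale that were normalized before deposit: each array has the same minimum (46.4) and maximum (42689). The second deposited table holds, per the file headers, intensity before normalization and each array's detection p-value. No source used here states any background subtraction, and precision is limited by the number of arrays.

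Series matrix intensities were background-corrected with normexp (offset 50), quantile-normalized and converted to log2 with limma 3.58.1 in R 4.3.3. The filter on dim probes asked for deposited detection p-values below 0.01 in 2 or more of 8 columns, whatever their names. These columns include the shSLX arrays of the series matrix but not its wildtype 3 and 4. Of 45281 probes, 16572 were tested, and 13572 to 16113 passed in single columns. A model of group and slide, with the slide taken from the sample labels, used all 8 arrays (3 residual and 5.69 prior degrees of freedom). The shSLX effect then equals the mean of shSLX 1 and 2 minus the mean of wildtype 3 and 4. Adjusted p is Benjamini-Hochberg over all probes tested. A gene took its probe of highest mean signal, and names came from the platform annotation, with 34807 probes updated through their gene identifiers. The 10378 probes with no symbol include 51 of the rises and 7 of the falls. Promoters were aligned globally with Biopython 1.88 (match 1, mismatch -1, gap opening -3, extension -1). On simulated data of 16572 probes for this comparison, 52% of changes of 0.5 were recovered and 100% of changes of 1, 1.5 and 2, with 16 false among 192 calls.

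Genes named are the Slx and Sly family, the 25 largest rises and falls past the threshold, the 12 largest among abundant genes, the 10 with the widest gap between the shSLX arrays, and called members of gene lists. Some with no well-known role are left out. Gm5168, Gm4836 and Gm20736, unlisted pairs of neighbours and list members that did not pass lie outside that rule and were chosen after their values were seen. The comparison, the 39 gene lists and the tests were chosen with earlier results of these data known. The protein likeness first planned was replaced by promoter likeness.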

Additional observations from a re-analysis of the deposited data

Results flagged for a closer look

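Among 89 named genes, 8 had 1 wildtype array whose log2 signal stood apart from the other 3 by a test of the gap against the range, a test that chance passes in about 1 of 20 groups. Wildtype 1 was the high array in 7 of the 8. It stood at 8.17 for Col23a1 (7.90 to 7.92 in the others), 7.47 for Arhgap8, 10.51 for Acsl5, 8.61 for 1810044D09Rik, 7.28 for Il31, 6.42 for Klk1b21 and 6.67 for Mgp. Wildtype 2 stood at 8.67 for Prss40, against 5.85 to 5.99 in the other wildtype arrays. Both shSLX arrays lay above these wildtype values for Col23a1, Arhgap8, Acsl5, Klk1b21 and Mgp.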

How the results depend on the processing

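No paired analysis was possible because shSLX 1 and 2 and wildtype 3 and 4 share no replicate number. The count of 400 called probes (363 rises and 37 falls) was 250 (241 and 9) on the slide of shSLX alone and, an alternative chosen after seeing the data, without both shSLY arrays. It was 266 (238 rises) with probes detected in all 8 columns. The falls were 67 with no slide term, 95 with slide as a random block and 62 with no filter. The fits without wildtype 1 or wildtype 2 could not differ from the main one. Those without shSLY 1 or shSLY 2 equalled the fit on the slide of shSLX alone. These alternatives are therefore not separate checks. Leaving out 1 array gave 43 to 2495 calls, 43 to 1167 rises and 0 to 1328 falls. The count stayed between 377 and 502 with offset 16, no background correction, the random block, no slide term, no filter and a trended robust fit, and was 270 with 1 probe per gene. Of 77 called genes named, 19 passed in every series matrix alternative that tested them (8 of the 19 were not tested with probes detected in all columns), 57 were lost without wildtype 3 and 55 without wildtype 4. By the non-normalized table's own headers, where the compared columns are other arrays, 2683 probes were called (1344 rises and 1339 falls), of which 106 were among the 400 and 57 had the same direction. There the sign of these log2 differences was the opposite: Klk1b26 -1.90, Bmp7 -1.81, Klk1b5 -1.68, Myl2 -0.78, Col23a1 -0.86, Klk1 -1.41, Plpp3 -0.00297, Klk1b9 -1.61, Arhgap8 -1.09, Pira2 -0.58, Aox4 -0.026, Prep -0.033, Cyp2a12 -0.51, Slamf9 -0.46, Cab39l 0.60, Bcar1 0.41, Slc39a6 0.36, Kcnu1 0.26, Defb33 -0.21, Cd3d -1.08, 1810044D09Rik -0.015, Myo7a -1.56, Gtf2ird2 -0.24, Sohlh1 -0.50, Myh11 -0.46, Acta2 -0.15, Lyz2 -0.77, C1qc -1.16, Lyz1 -0.95, Gadd45g -0.62, Klk1b8 -0.62, Klk1b21 -0.51, Klk1b27 -0.53, Myl3 -0.15, Mgp -0.34, Col4a2 -0.89. Ntpcr was -0.30 with no slide term. Between the fits without shSLX 1 and without shSLX 2, the differences ran from -0.13 to 3.79 for Ntpcr, -0.066 to 1.78 for 2310039H08Rik, -0.19 to 1.65 for Nudt12os and -0.053 to 1.70 for 4930405H06Rik. Where no value shows a cause, the cause was not tested. Signal near background limits the folds of the 71 dim rises.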

Other observations

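Some called probes carried no gene name. The largest, ILMN_1243356, stood at 8.97 and 9.05 in shSLX 1 and 2 against 7.49 and 7.27 in wildtype 3 and 4, and rose by 1.63 ± 0.11 (3.10-fold, adjusted p = 0.000161). ILMN_2697256 stood at 8.13 and 8.07 against 6.67 and 6.53, a 2.83-fold rise. Both rises exceeded wildtype 1 and 2 as well.

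Red cell markers differed between the wildtype arrays. The summed signal of Hba-a1 and Hbb-bs was 401.8 and 265.5 in shSLX 1 and 2, 261.3 and 218.5 in wildtype 3 and 4, and 1809 and 552.1 in wildtype 1 and 2.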
